A study of Mus musculus with 8 samples.

Results

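The ubiquitin-specific proteases (USPs) and ubiquitin C-terminal hydrolases (UCHs) were followed in oocytes of newborn mice with and without Rbpms2. Members were all genes of the expression table whose mouse symbol is Usp followed by a number, with or without letters after it, or Uchl followed by a number. There were 60 of them among 21959 genes, 56 named Usp and 4 named Uchl. One further symbol that fits, the antisense transcript Uchl1os, was not analysed here. Usp6nl fits by its symbol but encodes an activator of Rab GTPases and not a protease.

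Oocytes came from ovaries at postnatal day 1. The 4 knockout libraries are labelled Rbpms2 knock out and the 4 wild-type libraries WT, with Ctrl in their titles. Rbpms2 encodes an RNA-binding protein, and the comparison asks which transcripts differ without it. Each library was amplified over 18 cycles from a tube of 5 to 10 cells picked by hand as putative primordial oocytes. The labels give neither the strain, the deleted part of Rbpms2 nor whether each tube had its own animal. All p-values therefore refer to variation from tube to tube, part of which may be technical.

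Ubiquitin is a small protein that is attached to other proteins, either to send them to the proteasome or to change where they go and what they bind. USPs and UCHs are cysteine proteases that cut it off again. USPs have a large catalytic domain and many protein substrates, whereas UCHs mostly release ubiquitin from short tails and help keep the pool of free ubiquitin. UCHL1 is abundant in neurons and germ cells, and USP26 is encoded on the X chromosome and known from the testis.

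Values are FPKM, fragments per kilobase of exon scaled to library depth, so levels can be compared between genes only roughly. The exon length takes in all annotated exons of a gene and can far exceed a transcript. For Uchl3 it was 3831 bases, where the coding transcript used here had 903, and for Uchl4 both were 1162. Orders of members by FPKM and shares of summed FPKM carry this limit. Whole reads per gene could be worked out from the FPKM, and their totals were 9554090 to 14526326 per knockout library and 8310774 to 11926922 per wild-type library. Rbpms2 itself had 38.4, 58.3, 31.0 and 42.5 FPKM in knockout replicates 1 to 4, against 158.1, 167.4, 135.8 and 212.8 FPKM in wild-type replicates 1 to 4. Every knockout library was below every wild-type library, in the direction of the labels, and which part of the gene the remaining reads came from was not tested. The germ cell marker Ddx4 had 108.1 to 332.0 FPKM in knockout and 54.0 to 84.2 FPKM in wild type. Of the 7 oocyte markers Ddx4 and Dazl rose and Figla, Nobox, Zp3, Gdf9 and Kit fell. Markers of other cells differed between tubes. Summed over 7 genes, stromal markers reached 279.0 and 317.5 FPKM in knockout replicates 2 and 3 and were 4.83 and 9.61 FPKM in knockout replicates 1 and 4, against 3.37 to 72.2 FPKM in wild type, highest in replicate 3. The 7 pregranulosa markers summed to 276.2 FPKM in knockout replicate 3 and to 7.94 to 39.6 FPKM in the other knockout libraries, against 1.85 to 43.2 FPKM in wild type. The 8 immune markers summed to 324.0 FPKM in knockout replicate 3 and to 15.7 to 40.9 FPKM in the other knockout libraries. In wild type they summed to 4.78 to 13.0 FPKM. The 7 endothelial markers summed to 120.7 FPKM in knockout replicate 1, to 3.06 to 5.90 FPKM in the other knockout libraries and to 2.07 to 2.93 FPKM in wild type. The 6 erythroid markers summed to 99.6 to 3212 FPKM in knockout and to 11.9 to 5354 FPKM in wild type. In such samples fewer cells of a type and less RNA per cell cannot be told apart.

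The family split, with more members lower than higher in knockout. Of the 50 members that had at least 1 FPKM in 4 or more libraries and were tested, 8 rose and 18 fell (36.0%), and 24 were not called. Among all 11235 genes tested, 17.7% rose and 25.6% fell. The share of members that rose was thus close to that of all genes, and whether the share that fell differs was not tested. The median log2 fold change was -0.24 over the tested members and -0.12 over all genes tested. The test was limma on log2(FPKM + 1) with a Benjamini-Hochberg adjusted p under 0.05. In 27 of the 50 members (54.0%) knockout and wild-type libraries had no overlap, against 39.9% of all genes tested. The filter favours members that are high in one genotype. Of the 40 members at 1 FPKM or more in all 8 libraries 6 rose and 13 fell, and of the other 10 tested members 2 rose and 5 fell. The 10 members that were not tested were Usp9y, Usp13, Usp17la, Usp17lb, Usp17lc, Usp17ld, Usp18, Usp29, Usp44 and Usp49.

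**Figure D1:**
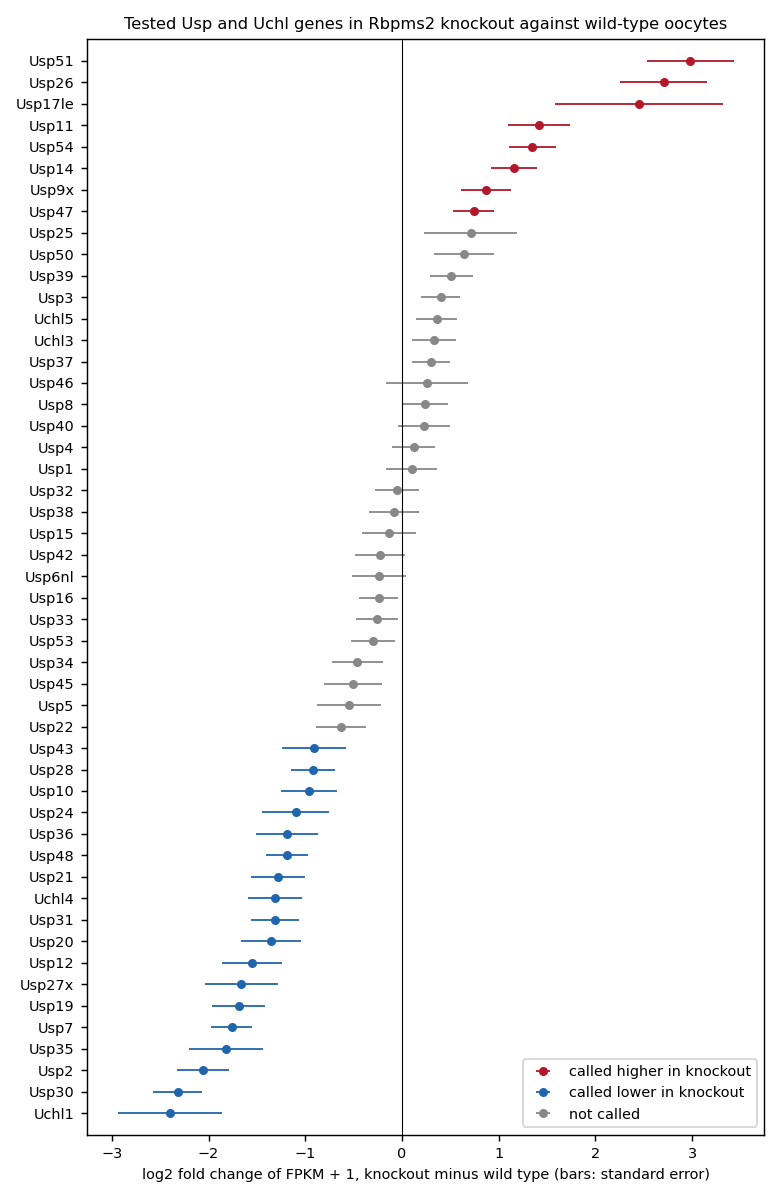
Log2 fold change of FPKM + 1 (horizontal axis, knockout minus wild type, 4 libraries each) of the 50 tested members, one per row, with standard error bars. The 8 members called higher run from Usp47 at 0.74 to Usp51 at 2.98, and the 18 called lower from Usp43 at -0.91 to Uchl1 at -2.40.

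The largest single shift in amount was in Uchl1, the most abundant member in both genotypes. Uchl1 (ENSMUSG00000029223, chromosome 5, 66676091 to 66687234 in GRCm38) had 124.6, 1028, 202.1 and 556.3 FPKM in knockout replicates 1 to 4, against 2319, 1825, 1360 and 1946 FPKM in wild-type replicates 1 to 4. Every knockout library lay below every wild-type library, and the knockout libraries spread widely, with replicate 2 nearest to wild type. The means were 477.8 ± 412.3 FPKM in knockout and 1862 ± 395.6 FPKM in wild type (SD, n = 4 each). Uchl1 fell by 2.40 on the log2 scale (SE 0.54, limma adjusted p = 0.00474). By exact permutation, two-sided, p was 0.0286, the smallest that 4 against 4 libraries allow. Uchl1 shares 295 exonic bases with Uchl1os on the opposite strand, and whether counting used strand is not stated in the labels.

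Uchl1 also set the total of the family. It made up 13.8, 59.2, 21.3 and 41.0% of the summed FPKM of all 60 members in knockout replicates 1 to 4, against 74.5, 70.6, 62.1 and 70.7% in wild-type replicates 1 to 4. Summed FPKM was 1238 ± 391.0 in knockout and 2661 ± 384.4 in wild type (SD, n = 4 each). The sum of the other 59 members was 760.0 ± 40.3 FPKM in knockout and 798.3 ± 28.1 FPKM in wild type (SD, n = 4 each; exact two-sided permutation p = 0.171). Rises and falls among those members thus came to sums that the test did not separate. Knockout replicate 1, lowest in Uchl1, was also the library rich in endothelial markers (120.7 FPKM). Replicate 3, the next lowest, was rich in immune (324.0 FPKM) and stromal (317.5 FPKM) markers. Replicate 2, the highest in Uchl1 among knockout libraries, was rich in stromal markers too (279.0 FPKM), whereas replicate 4, the next highest, was not (9.61 FPKM). Whether other cells in the tubes bear on the level of Uchl1 was not tested. Without knockout replicate 1 the log2 fold change of Uchl1 was -1.91 (limma adjusted p = 0.00912). When the 3 libraries rich in somatic markers, meaning stromal and pregranulosa ones (knockout replicates 2 and 3 and wild-type replicate 3) were left out, which keeps knockout replicate 1, it was -2.93 (limma adjusted p = 0.00337).

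**Figure D2:**
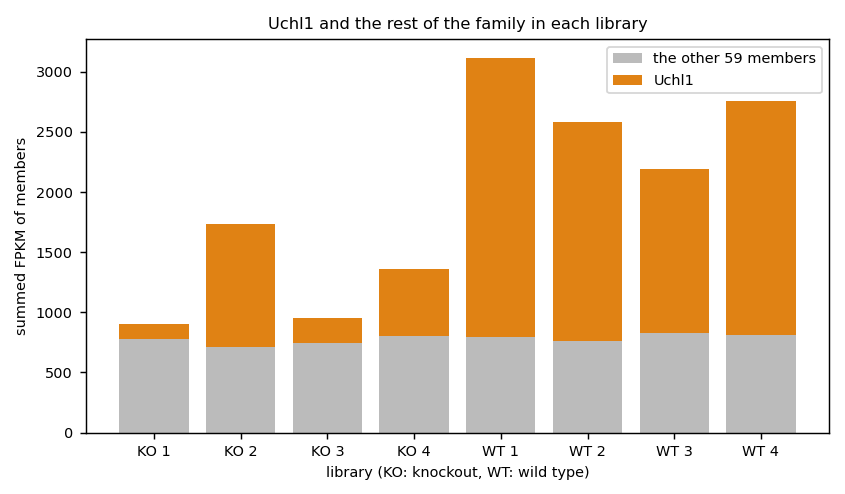
Summed FPKM of the 60 members in each library (bars from 0), split into Uchl1 (orange) and the other 59 members (grey), with knockout libraries left of wild-type ones. The grey parts lie between 709.8 and 828.3 FPKM, and the orange part is smaller in each knockout library than in each wild-type library.

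The other 3 UCH genes did not share one direction. Uchl4 (chromosome 9, 64235201 to 64236362), a single-exon gene in mouse whose transcript is 96.6% identical to that of Uchl3 over 851 bases, fell. It had 7.58, 9.23, 6.65 and 6.48 FPKM in knockout replicates 1 to 4, against 27.0, 17.5, 12.1 and 26.8 FPKM in wild-type replicates 1 to 4, with no overlap (log2 fold change -1.31, limma adjusted p = 0.00349). Uchl3, which cuts ubiquitin and the related NEDD8, had 74.0, 72.3, 53.9 and 69.0 FPKM in knockout replicates 1 to 4, against 61.3, 68.0, 35.1 and 52.9 FPKM in wild-type replicates 1 to 4. The genotypes overlapped, and it was not called (log2 fold change 0.33, limma adjusted p = 0.253). Reads of these near-identical copies may be assigned to the wrong gene, so the fall of Uchl4 is uncertain. Uchl5, the UCH that binds the proteasome, had 63.0, 64.7, 40.0 and 50.9 FPKM in knockout replicates 1 to 4, against 46.9, 44.4, 32.9 and 43.4 FPKM in wild-type replicates 1 to 4. It too overlapped and was not called (log2 fold change 0.36, limma adjusted p = 0.182). These were the members ranked 2 and 3 in knockout by mean FPKM, where Usp9x and Usp14 came next. In wild type Usp7 was ranked 2, and Uchl3, Uchl5 and Usp2 followed. Below Uchl1, the ranges of neighbours in these orders overlapped.

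Among enzymes that recycle ubiquitin at the proteasome or from free chains, 1 of 2 tested members rose, as did 17.7% of all genes tested. Usp14, which trims chains on the proteasome, had 38.7, 52.2, 38.5 and 55.4 FPKM in knockout replicates 1 to 4, against 25.7, 25.2, 15.3 and 15.6 FPKM in wild-type replicates 1 to 4. The genotypes did not overlap (log2 fold change 1.16, limma adjusted p = 0.00289). Its exons overlap those of Thoc1 on the opposite strand over 2169 bases, and Thoc1 rose as well, with 20.9 ± 4.16 FPKM in knockout and 4.52 ± 1.5 FPKM in wild type (SD, n = 4 each). How reads in the shared bases were assigned is not known. The call of Usp14 also ended when each library's trend against transcript GC content was removed (log2 fold change 0.39, limma adjusted p = 0.198). Usp5, which takes apart unanchored chains, had 14.0 ± 4.46 FPKM in knockout and 21.7 ± 10.3 FPKM in wild type (SD, n = 4 each) and was not called. Its paralog Usp13 had 0.718 FPKM or less in every library.

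Of 9 tested members that act on histones and chromatin 1 rose and 4 fell, where 17.7% of all genes tested rose and 25.6% fell. The widest contrast was within a trio of related enzymes that in human cells share the SAGA partners ATXN7L3 and ENY2. Usp51 (ENSMUSG00000067215, chromosome X, 153006469 to 153009416) had 9.16, 9.45, 15.4 and 16.6 FPKM in knockout replicates 1 to 4, against 0.646, 3.29 and 0.108 FPKM in wild-type replicates 1 to 3 and 0 reads in replicate 4, where 3 reads would have been 0.164 FPKM. It was the largest rise of the family, with means of 12.6 ± 3.89 FPKM in knockout and 1.01 ± 1.54 FPKM in wild type (SD, n = 4 each; log2 fold change 2.98, SE 0.45, limma adjusted p = 0.000442). Usp27x, also on chromosome X, had 0.380, 0.466, 2.30 and 0.880 FPKM in knockout replicates 1 to 4, against 2.60, 4.56, 6.06 and 7.92 FPKM in wild-type replicates 1 to 4. It fell without overlap (log2 fold change -1.66, limma adjusted p = 0.00510). Usp22, the enzyme of the SAGA complex itself, had 15.7, 31.2, 31.5 and 17.4 FPKM in knockout replicates 1 to 4, against 31.8, 39.5, 42.8 and 30.9 FPKM in wild-type replicates 1 to 4. The genotypes overlapped, and it was not called (log2 fold change -0.63, limma adjusted p = 0.0744), though it was called lower without knockout replicate 2 (limma adjusted p = 0.0435), without knockout replicate 3 (limma adjusted p = 0.0347) or without the 3 libraries rich in somatic markers (limma adjusted p = 0.00849). Of the shared partners Eny2 fell, with 26.9 ± 3.22 FPKM in knockout and 44.9 ± 1.41 FPKM in wild type (SD, n = 4 each), and Atxn7l3 was not called.

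Usp16 and Usp3, which remove ubiquitin from histone H2A, were not called. Usp16 had 24.7, 18.1, 29.9 and 30.2 FPKM in knockout replicates 1 to 4, against 31.3, 30.1, 28.7 and 30.0 FPKM in wild-type replicates 1 to 4. Usp3 had 13.7, 16.6, 17.1 and 13.3 FPKM in knockout replicates 1 to 4, against 9.91, 10.9, 12.6 and 11.5 FPKM in wild-type replicates 1 to 4. Usp16 overlapped, and Usp3 did not overlap but was called higher only after median-of-ratios scaling (log2 fold change 0.54, limma adjusted p = 0.0496). Usp21 and Usp36, a nucleolar enzyme, fell by 1.28 and 1.19 on the log2 scale, and the call of Usp36 ended after the GC correction (limma adjusted p = 0.0594). Usp12 fell too, with 3.34, 1.94, 6.68 and 2.59 FPKM in knockout replicates 1 to 4, against 10.3, 11.1, 13.7 and 11.9 FPKM in wild-type replicates 1 to 4 (log2 fold change -1.55, limma adjusted p = 0.00243). Its paralog Usp46, with which it shares the activators WDR48 and WDR20, was not called (2.65 ± 2.08 FPKM in knockout and 1.78 ± 0.775 FPKM in wild type; SD, n = 4 each). Wdr20 fell and Wdr48 was not called. Usp44, known for its part in the mitotic checkpoint, had 3.39 FPKM in knockout replicate 1 and 0.363 FPKM or less in every other library, and Usp49, which acts on histone H2B, had 1.53 FPKM or less throughout.

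Among members linked to DNA repair and p53, 4 of 9 fell and 2 rose, where 25.6% of all genes tested fell and 17.7% rose. Usp7 (chromosome 16), which acts on p53, its ligase MDM2 and the methyltransferase DNMT1, had 16.4, 23.1, 22.9 and 17.3 FPKM in knockout replicates 1 to 4, against 57.9, 61.2, 84.4 and 76.8 FPKM in wild-type replicates 1 to 4. The groups lay far apart, and the spread within each was small beside the difference (log2 fold change -1.76, SE 0.21, limma adjusted p = 8.77e-05). Usp10, which also acts on p53, had 4.33, 2.56, 6.32 and 3.52 FPKM in knockout replicates 1 to 4, against 7.89, 7.56, 8.08 and 11.9 FPKM in wild-type replicates 1 to 4, a fall of -0.96 on the log2 scale (limma adjusted p = 0.0199). That call ended without wild-type replicate 4 (limma adjusted p = 0.0692) and after the GC correction (limma adjusted p = 0.0927). Usp28, which counters the ligase FBXW7, and Usp48 fell with log2 fold changes of -0.92 and -1.19.

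The members of that group that rose were Usp11 and Usp47. Usp11 (chromosome X), which acts on the repair protein BRCA2, had 39.5, 30.6, 15.7 and 35.4 FPKM in knockout replicates 1 to 4, against 8.60, 11.5, 14.6 and 7.08 FPKM in wild-type replicates 1 to 4. The lowest knockout library, replicate 3, was just above the highest wild-type library, also replicate 3 (log2 fold change 1.42, limma adjusted p = 0.00439). Both were among the libraries rich in somatic markers, and without those and knockout replicate 2 the log2 fold change was 1.95 (limma adjusted p = 0.00104). Usp47, which acts on DNA polymerase beta, had 22.3, 14.7, 16.3 and 19.4 FPKM in knockout replicates 1 to 4, against 10.1, 10.6, 11.7 and 9.34 FPKM in wild-type replicates 1 to 4 (log2 fold change 0.74, limma adjusted p = 0.0156). Its call ended without knockout replicate 1 (limma adjusted p = 0.0503) and after the GC correction (limma adjusted p = 0.266). Usp1, which acts on FANCD2 and PCNA, Usp37 and Usp45 were not called, with log2 fold changes of 0.10, 0.30 and -0.51.

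In the group linked to trafficking, receptors and the endoplasmic reticulum 3 of 9 members fell and 1 rose. Of all genes tested 25.6% fell and 17.7% rose. Usp2 was among the most abundant members in wild type and had 13.0, 6.37, 6.87 and 11.3 FPKM in knockout replicates 1 to 4, against 53.6, 43.5, 31.8 and 36.9 FPKM in wild-type replicates 1 to 4 (log2 fold change -2.06, SE 0.27, limma adjusted p = 0.000179). Usp19, which has a form anchored in the endoplasmic reticulum, had 11.9, 8.25, 8.02 and 15.7 FPKM in knockout replicates 1 to 4, against 29.3, 29.8, 40.7 and 48.9 FPKM in wild-type replicates 1 to 4 (log2 fold change -1.69, limma adjusted p = 0.000576). In both genes every knockout library was below every wild-type library. Usp20 fell by 1.35 on the log2 scale, whereas its paralog Usp33, which in human cells shares receptor substrates with it, did not overlap (5.19 ± 0.501 FPKM in knockout and 6.41 ± 0.536 FPKM in wild type; SD, n = 4 each) but was not called.

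Usp9x (chromosome X), an enzyme of many substrates that include endosomal proteins, was the member of that group that rose. It had 59.3, 43.2, 42.8 and 70.6 FPKM in knockout replicates 1 to 4, against 39.0, 32.8, 26.2 and 19.3 FPKM in wild-type replicates 1 to 4 (log2 fold change 0.87, limma adjusted p = 0.0184). The groups did not overlap, but the call ended without wild-type replicate 4 (limma adjusted p = 0.0569), without knockout replicate 4 (limma adjusted p = 0.0509) and after the GC correction (log2 fold change 0.16, limma adjusted p = 0.586). Usp8, which acts on endosomes and growth factor receptors, had 41.2 ± 12.8 FPKM in knockout and 33.8 ± 5.78 FPKM in wild type (SD, n = 4 each) and was not called. Nor were Usp32, Usp6nl and Usp25, with log2 fold changes of -0.05, -0.24 and 0.71. Usp25 had 2.69, 3.43, 4.90 and 0.386 FPKM in knockout replicates 1 to 4, against 1.19, 0.335, 2.63 and 0.777 FPKM in wild-type replicates 1 to 4. Without knockout replicate 4 it was called higher (limma adjusted p = 0.0405).

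The 3 tested members tied to mitochondria or autophagy, Usp30, Usp35 and Usp24, were each called lower, as were 25.6% of all genes tested. The call of Usp24 was not stable. Usp30 (chromosome 5), which sits in the outer mitochondrial membrane and counters the ligase parkin, had 1.58, 2.25, 2.67 and 2.28 FPKM in knockout replicates 1 to 4, against 12.1, 13.5, 14.5 and 20.4 FPKM in wild-type replicates 1 to 4. It had the smallest p of the family (log2 fold change -2.32, SE 0.25, limma adjusted p = 6.16e-05). Its exons share 329 bases with Alkbh2 on the opposite strand, which was not called. Usp35, reported on mitochondria in human cells, had 0.744 ± 0.858 FPKM in knockout and 4.97 ± 1.97 FPKM in wild type (SD, n = 4 each; log2 fold change -1.82). Usp24, a large enzyme linked to autophagy, had 0.595, 3.00, 3.09 and 2.39 FPKM in knockout replicates 1 to 4, against 3.95, 5.29, 7.28 and 6.19 FPKM in wild-type replicates 1 to 4, with no overlap (log2 fold change -1.10, limma adjusted p = 0.0271). The call of Usp24 ended when knockout replicate 1 or any of wild-type replicates 2, 3 and 4 was left out (limma adjusted p = 0.0568 to 0.0699) and under quantile scaling (limma adjusted p = 0.0651).

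**Figure D3:**
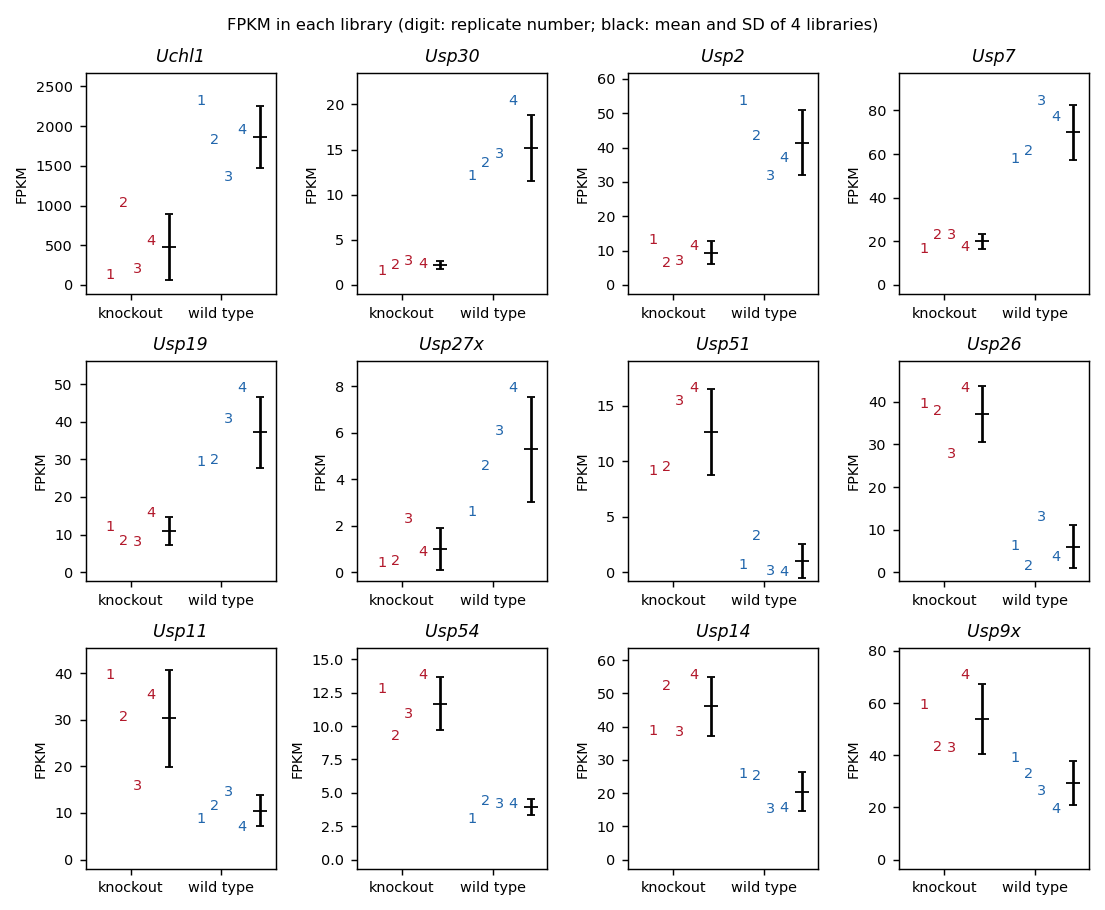
FPKM (vertical axes, different scale in each panel) of 12 members in each library, where a digit is a library's replicate number and the black bar gives the mean and SD of 4 libraries, knockout left of wild type. The 12 were taken from members called without overlap, so the genotypes do not overlap in any panel. Uchl1, Usp30, Usp2, Usp7, Usp19 and Usp27x are lower in knockout and Usp51, Usp26, Usp11, Usp54, Usp14 and Usp9x higher.

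The members tied to splicing, Usp4, Usp15 and Usp39, were not called. Usp39, a spliceosome protein without protease activity, had 34.9 ± 6.94 FPKM in knockout and 24.4 ± 5.42 FPKM in wild type (SD, n = 4 each). Usp18, which removes the interferon-induced modifier ISG15, had 1.69 FPKM or less in every library. Of the 9 members placed in no role group 1 rose and 2 fell, where 17.7% of all genes tested rose and 25.6% fell. Usp54 rose, with 12.8, 9.27, 10.9 and 13.8 FPKM in knockout replicates 1 to 4, against 3.05, 4.42, 4.14 and 4.17 FPKM in wild-type replicates 1 to 4 (log2 fold change 1.35, SE 0.24, limma adjusted p = 0.00105). Usp53, its paralog, was not called, with 5.58 ± 1.16 FPKM in knockout and 7.01 ± 0.0926 FPKM in wild type (SD, n = 4 each), though its libraries did not overlap. Usp31 fell, with 2.70, 2.01, 2.61 and 2.72 FPKM in knockout replicates 1 to 4, against 6.09, 6.74, 8.86 and 9.55 FPKM in wild-type replicates 1 to 4 (log2 fold change -1.31, limma adjusted p = 0.00182).

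Usp43, the paralog of Usp31, was at the edge of detection, with 0.018, 1.13, 0.425 and 0.220 FPKM in knockout replicates 1 to 4, against 1.38, 1.53, 1.12 and 2.74 FPKM in wild-type replicates 1 to 4. The genotypes overlapped at their edges. Its fall (log2 fold change -0.91, limma adjusted p = 0.0454) was lost without any 1 of 6 libraries, namely wild-type replicates 1, 2 and 4 and knockout replicates 1, 3 and 4 (limma adjusted p = 0.0618 to 0.115). Usp50 had 3.22, 1.2, 2.14 and 3.67 FPKM in knockout replicates 1 to 4, against 1.32, 1.04, 1.53 and 0.929 FPKM in wild-type replicates 1 to 4, and was called higher only without knockout replicate 2 (limma adjusted p = 0.0488), without the 3 libraries rich in somatic markers (limma adjusted p = 0.0286) or under quantile scaling (limma adjusted p = 0.0482). Usp34, Usp38, Usp40 and Usp42 were not called, with log2 fold changes of -0.46, -0.08, 0.23 and -0.23.

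Usp26, the X-linked member known from the testis, rose. Usp26 (ENSMUSG00000055780, chromosome X, 51753959 to 51801233) had 39.5, 37.8, 27.8 and 43.2 FPKM in knockout replicates 1 to 4, against 6.16, 1.41, 13.0 and 3.55 FPKM in wild-type replicates 1 to 4. The groups lay apart, with the lowest knockout and the highest wild-type library both being replicate 3. Its means were 37.1 ± 6.58 FPKM in knockout and 6.03 ± 5.03 FPKM in wild type (SD, n = 4 each), which ranked it 7 of the 60 members in knockout and 36 in wild type. Usp26 rose by 2.71 on the log2 scale (SE 0.45, limma adjusted p = 0.000778), and by 2.04 after the GC correction (limma adjusted p = 0.00454). Usp29, an imprinted relative of Usp26 that is expressed mainly from the paternal copy, had 0.161, 0.232, 1.03 and 0.121 FPKM in knockout replicates 1 to 4, against 0.306, 0.401, 0.308 and 0.532 FPKM in wild-type replicates 1 to 4, and was not tested. Usp9y, the Y-linked copy of Usp9x, had 0 reads in all 8 libraries, which allows up to 0.0043 FPKM over them (3 reads).

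The 5 Usp17l genes lie on chromosome 7, with Usp17lc and Usp17ld apart from Usp17la, Usp17lb and Usp17le. Their aligned transcripts are 89.4 to 97.8% identical to each other, and they may share reads. Usp17le had 0.387, 5.29, 49.7 and 4.74 FPKM in knockout replicates 1 to 4, against 0.126, 0, 0 and 1.51 FPKM in wild-type replicates 1 to 4. It was called higher (log2 fold change 2.45, SE 0.87, limma adjusted p = 0.0403), but the genotypes overlapped and most of the signal was in knockout replicate 3, the library highest in stromal (317.5 FPKM), pregranulosa (276.2 FPKM) and immune (324.0 FPKM) markers. The part of those cells in the result was not tested. The call was lost without any 1 of 6 libraries, namely wild-type replicates 1, 2 and 3 and knockout replicates 2, 3 and 4 (limma adjusted p = 0.0536 to 0.0883). Without knockout replicate 3 the log2 fold change was 1.51, and without the 3 libraries rich in somatic markers it was 1.0 (limma adjusted p = 0.261). Usp17la and Usp17lb, with 2.02 and 4.09 FPKM in knockout replicate 3 and 0.352 FPKM or less elsewhere, had 0 reads in every wild-type library, as did Usp17lc and Usp17ld.

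Of the 5 members on the X chromosome 4 rose (Usp9x, Usp11, Usp26 and Usp51) and Usp27x fell. Over all 467 X-linked genes tested 38.5% rose and 15.8% fell, so rises were common among X-linked genes beyond this family.

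Promoters are shown for the pair of members that rose most and the pair that fell most by log2 fold change of FPKM + 1. This order depends on the amount added before the log. With 0.1 in place of 1, Usp35 (-3.0), Usp30 (-2.73) and Usp27x (-2.48) fell more than Uchl1 (-2.4). Usp17le then rose by 4.35, more than Usp26 at 2.99. The promoters are from RefSeq on GRCm38.p6 and run from 250 bases before the start to 50 after it, 5′ to 3′ along the gene. Of the 60 members 47 had an entry. Capitals mark matches on either strand to the E-box CANNTG, which FIGLA binds with a partner protein, and to TAATTG or TAATTA, which NOBOX binds. The start of Usp30 in RefSeq lies inside the gene as GENCODE draws it. The promoters of Usp51 (chrX:153006219-153006518, plus strand), Usp26 (chrX:51801184-51801483, minus strand), Uchl1 (chr5:66675871-66676170, plus strand) and Usp30 (chr5:114100083-114100382, plus strand) read as follows.
Usp51: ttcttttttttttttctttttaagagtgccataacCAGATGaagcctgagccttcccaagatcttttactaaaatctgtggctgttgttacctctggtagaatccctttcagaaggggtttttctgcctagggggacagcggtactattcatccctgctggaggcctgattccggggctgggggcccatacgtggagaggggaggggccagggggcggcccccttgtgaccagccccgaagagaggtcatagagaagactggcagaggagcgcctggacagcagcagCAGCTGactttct
Usp26: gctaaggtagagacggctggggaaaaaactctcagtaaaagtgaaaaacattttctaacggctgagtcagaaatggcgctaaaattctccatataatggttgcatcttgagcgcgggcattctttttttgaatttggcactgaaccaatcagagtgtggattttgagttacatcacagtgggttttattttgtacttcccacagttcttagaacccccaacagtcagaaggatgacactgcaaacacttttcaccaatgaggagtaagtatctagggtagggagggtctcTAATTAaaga
Uchl1: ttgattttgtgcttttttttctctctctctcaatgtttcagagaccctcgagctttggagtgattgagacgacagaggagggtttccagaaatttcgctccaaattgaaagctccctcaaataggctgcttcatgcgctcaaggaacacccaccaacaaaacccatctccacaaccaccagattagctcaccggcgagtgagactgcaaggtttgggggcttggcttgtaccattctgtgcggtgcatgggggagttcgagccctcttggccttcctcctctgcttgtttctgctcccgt
Usp30: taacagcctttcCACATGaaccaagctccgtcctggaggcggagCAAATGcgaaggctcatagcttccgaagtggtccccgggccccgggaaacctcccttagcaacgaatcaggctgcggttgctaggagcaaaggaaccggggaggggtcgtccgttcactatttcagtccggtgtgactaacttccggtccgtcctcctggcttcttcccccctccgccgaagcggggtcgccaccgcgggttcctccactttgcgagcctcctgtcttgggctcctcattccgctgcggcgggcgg
CANNTG occurred 2 times in the promoters of Usp51 and of Usp30 and not in those of Usp26 and Uchl1. It was present in 3 of 5 promoters of members called higher, 8 of 17 of members called lower and 13 of 17 of members not called, against 72.3% of all 32544 promoters of that length. TAATTG was in none of the 47 and in 8.01% of all promoters, and TAATTA was in those of Usp26, Uchl4 and Usp16 and in 5.29% of all. CNCCTCAG, which STRA8 binds in mouse testis, was in those of Usp24 and Usp25 and in 7.99% of all.

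The calls of related members were set side by side. Among 16 pairs of tested members whose transcripts align over 200 bases or more, 3 were called in opposite directions (Usp27x and Usp51, Usp11 and Usp19, Usp24 and Usp9x). Usp11 and Usp19 aligned over only 254 bases, and Usp24 and Usp9x over 342. Usp31 and Usp43 were the pair that fell together. The calls of Usp24, Usp9x and Usp43 each depended on single libraries, as given above. In 10 pairs 1 member was called, and in 2 neither was, where 52.0% of tested members were called. The alignment of Usp27x and Usp51 had 72.9% identity over 1033 bases, and that of Usp53 and Usp54 had 67.5% over 989 bases. A difference between the members of a pair was not tested.

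**Figure D4:**
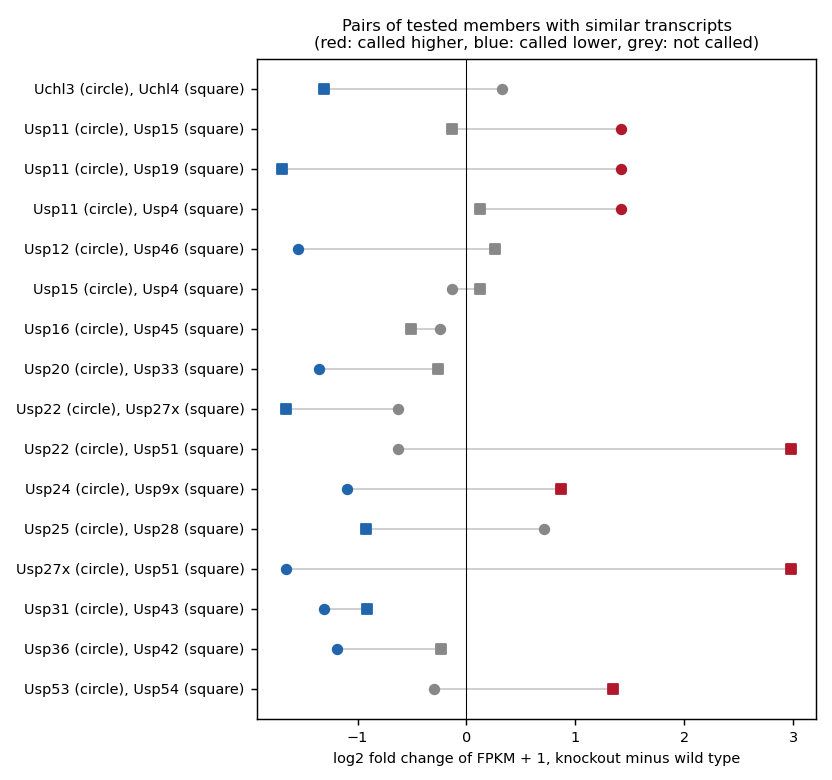
Log2 fold change of FPKM + 1 (horizontal axis, knockout minus wild type) of both members of 16 pairs with similar transcripts, a circle and a square joined by a line, coloured by call. The widest line joins Usp27x at -1.66 and Usp51 at 2.98, and Usp31 and Usp43 lie together below 0.

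Over all genes tested, fold changes moved with transcript GC content. Split by GC into 10 equal bins, genes had a median log2 fold change of 0.52 in the bin of lowest GC and of -0.90 in the bin of highest GC. Members that rose had a median GC of 46.0%, those that fell 53.8% and those not called 44.9%, against 45.5, 53.6 and 49.8% for all genes that rose, fell and were not called. Members not called thus had a lower median GC than those that rose, unlike all genes. After the trend was removed from each library 6 members were higher and 20 lower. The median then stood at -0.52 over members and -0.13 over all genes on the log2 scale. Usp9x, Usp14 and Usp47 were then no longer called higher, nor Usp10, Usp36 and Usp43 lower. Usp16, Usp33, Usp34, Usp45 and Usp53 were then called lower and Usp39 higher. Usp7 and Uchl4 had larger falls after the correction, at -2.12 and -1.96, whereas Usp21 and Usp35 had smaller ones, at -0.75 and -1.2. In 3′ untranslated regions of at least 100 bases, CAC, the core of the element that RBPMS proteins bind in human cells, occurred at a median of 14.6 per 1000 bases in 18 members that fell, 11.0 in 6 that rose and 12.3 in 23 not called. Over all genes tested the medians were 16.1, 12.4 and 14.5 for those that fell, rose and were not called, and GC in those regions was 48.1, 39.2 and 43.9%.

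**Figure D5:**
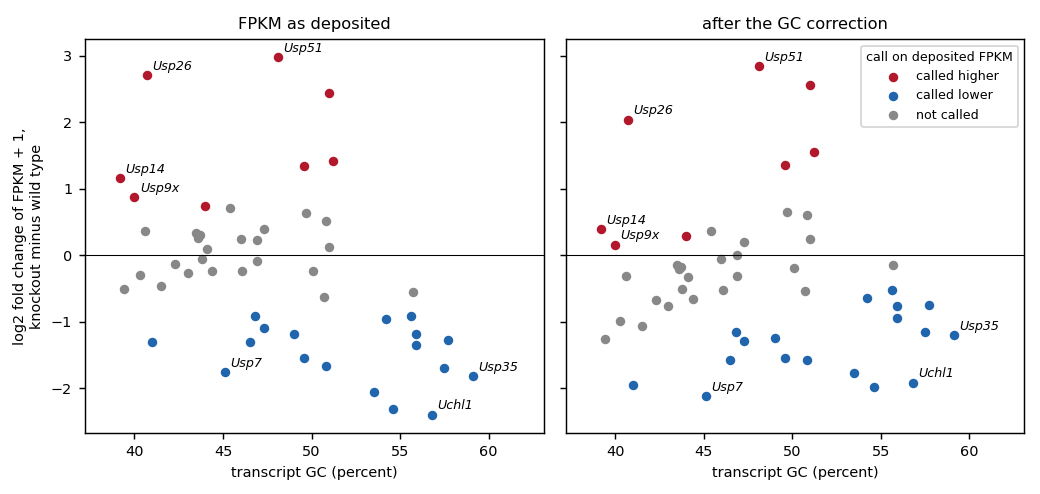
Log2 fold change of FPKM + 1 (vertical axis, knockout minus wild type) of the 50 tested members against transcript GC content in percent, from the deposited FPKM (left) and after each library's GC trend was removed (right), coloured by the call on the deposited values. Usp9x and Usp14, at 40.0 and 39.2% GC, move to 0.16 and 0.39, while Usp51, Usp26, Usp7 and Uchl1 stay far from 0.

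Other deubiquitinases included larger rises than any member. Among 13 tested genes of the ovarian tumour (OTU) family 4 rose and 3 fell (median log2 fold change 0.01). Beside this and the lists that follow, 17.7% of all genes tested rose and 25.6% fell (median -0.12). Otud6a had 61.5, 54.0, 42.1 and 64.1 FPKM in knockout replicates 1 to 4, against 0.288, 1.38, 0 and 0.964 FPKM in wild-type replicates 1 to 4 (log2 fold change 5.15, limma adjusted p = 1.33e-06). Yod1 had 59.9, 51.5, 53.5 and 140.9 FPKM in knockout replicates 1 to 4, against 1.22, 2.50, 5.47 and 0.529 FPKM in wild-type replicates 1 to 4 (log2 fold change 4.57, limma adjusted p = 3.56e-05). Of 10 tested metalloproteases of the JAMM family and their inactive relatives 3 rose and 2 fell (median -0.02), with the proteasome subunit gene Psmd14 and the histone H2A enzyme gene Mysm1 higher at log2 fold changes of 0.98 and 1.49. Of 8 tested Josephin, MINDY and ZUP1 genes 2 rose and the other 6 were not called (median 0.44). The X-linked Otud5 fell, with 21.1 ± 2.45 FPKM in knockout and 44.3 ± 9.54 FPKM in wild type (SD, n = 4 each). Among 4 further genes of the USP or UCH fold Cyld rose and Pan2 and Bap1 fell (median -0.28).

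Uba6, an enzyme that activates ubiquitin for its attachment and so acts opposite to the deubiquitinases, rose. It had 32.8 ± 8.51 FPKM in knockout and 13.3 ± 4.61 FPKM in wild type (SD, n = 4 each; limma adjusted p = 0.00356). Of 16 genes for partners or substrates of USPs Fancd2 rose and Wdr20, Eny2, Sgf29 and Ing1 fell (median -0.20). After the GC correction Uba6, Psmd14, Atxn3, Mindy3, Pan2, Bap1 and Sgf29 were no longer called, and after median-of-ratios scaling neither were Pan2, Bap1 and Sgf29.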

How the data were processed

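RNA of 8 tubes of oocytes, 4 knockout and 4 wild type, was measured by sequencing. Per the submitters' processing notes reads were handled with cutadapt, HISAT2 and HTSeq on GRCm38 (mm10), with versions, strand setting and annotation not given in the sources used here. Per gene and library, the authors deposited FPKM. Of 21959 genes 21851 had a symbol and 21902 an exon length in GENCODE M21. FPKM times exon length came in steps of 1 read (98.2 to 98.4% of values whole within 0.02 reads), which gave the depths. Reads without molecular identifiers are not independent molecules, so floors (3 reads) cover counting error only. Within a genotype every pair of libraries differed far beyond sampling noise (chi-square of 35.4 or more per degree of freedom).

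Genes reaching 1 FPKM in 4 or more libraries entered a limma fit (version 3.58.1, R 4.3.3) of log2(FPKM + 1), with genotype as the only term and a trended eBayes step. For low genes such fold changes are too small. Single values were tested by exact permutation over 70 splits. The GC correction removed from each library a loess curve (span 0.5) of its deviations against transcript GC. Transcripts of members were compared with blastn.

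Members and lists were chosen with earlier results of these data known. Described with values per library were Uchl1, Uchl3, Uchl4, Uchl5, Usp26, Usp29, Usp9x, Usp7, Usp14, Usp16 and Usp9y, the up to 8 largest rises and falls called without overlap at 5 FPKM or more in the higher genotype, the 5 most abundant members per genotype, and members whose call hung on 1 library or a scaling. From the other lists up to 3 called genes were taken by p, and further ones were named after their values were seen. One further list is not reported here, apart from Uba6. Alternatives were other pseudocounts (0.1 and 5), filters, scalings and weights, the replicate number as a block, the GC correction and each library left out, and, chosen after seeing the data, limma-voom on recovered reads and a fit without 3 libraries. The steps were tested on simulated data. Figures used Python 3.11.15 and matplotlib 3.10.9.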

Additional observations from a re-analysis of the deposited data

Results flagged for a closer look

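In 102 groups of 4 libraries, the members tested and Rbpms2 in each genotype, 5 groups held a library that stood apart from the other 3. A library counted as apart where its gap to the nearest other, as a share of the group's range, passed Dixon's critical value. Chance gives this in about 1 in 20 groups, so 5 of 102 is about the number that chance alone would give. Usp17le was highest in knockout replicate 3 at 49.7 FPKM, against 5.29 FPKM or less in the other knockout libraries (gap 0.901 of the range), and in wild type it was highest in replicate 4 at 1.51 FPKM (0.916). Usp31 was lowest in knockout replicate 2 at 2.01 FPKM (0.842), and Usp32 was lowest in the same library at 12.6 FPKM (0.891). Usp10 was highest in wild-type replicate 4 at 11.9 FPKM (0.879).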

How the results depend on the processing

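Of the 26 members called, 18 were called in the same direction under all of the 22 alternatives that gave a value for them, 4 higher and 14 lower, and 20 in every fit that left out 1 library. The number of members called higher was 8, and 5 to 9 over all alternatives. It was 5 after the GC correction with the replicate block. Members called lower were 18, and 13 to 20. Over the same alternatives 10.1 to 22.3% of all genes tested were called higher and 14.9 to 29.0% lower. Leaving out 1 library gave 7 to 8 higher and 15 to 19 lower, and leaving out the 3 libraries rich in somatic markers 8 and 19. No member that was called under any setting changed direction. Median-of-ratios and quantile scaling moved the median log2 fold change of all genes from -0.12 to 0 and to 0.04. After median-of-ratios scaling 9 members (18.0%) were higher and 17 (34.0%) lower, against 20.6 and 22.3% of all genes tested. After quantile scaling 9 members (18.0%) were higher and 16 (32.0%) lower, against 22.3% of all genes in each direction.

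The replicate number as a block gave 8 higher and 18 lower, with Usp43 losing its call and Usp22 called lower (limma adjusted p = 0.0355). The labels do not say what a number marks. Deviations of same-numbered libraries correlated at 0.185, 0.016, 0.361 and -0.053 for replicates 1 to 4, and 2 of 4 knockout and 1 of 4 wild-type libraries correlated best with their own number, so the libraries were not treated as pairs. Depth limits the lowest members, such as Usp17ld with 2 reads over all knockout libraries and 0 in wild type. The 10 members below the filter were not tested in the main fit. The alternative without a filter took in 59 members, all but Usp9y, and its values for single members below the filter are not reported here.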
